A study of Nicotiana tabacum with 20 samples.

Results

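In leaves of Nicotiana tabacum (tobacco), 14 of 24069 transcript features kept nearly the same level in all 5 groups of plants on 1 particular scale of the libraries. A feature here is a UniGene sequence, that is, a cluster of expressed sequences taken to stand for 1 transcript. The 14 were chosen from the measured values by a rule with 3 conditions. Each had at least 20 reads in every one of the 20 libraries, each had a largest group mean at most 1.3 times its smallest, and none was among the 100 features with the most reads. Of the 24069 features, 450 met the first and the last condition. For the second condition, reads were divided by a size factor, the median ratio of a library's reads to each feature's geometric mean over the 1134 features with at least 10 reads in every library, and 1 was added to each group mean. Reads divided in this way are called scaled reads below, and the largest group mean over the smallest is called the ratio. The steadiness of the group means is thus what selected these features and is not a finding. It also depended on the scale: with another scaling, TMM (explained below), 11 of the 14 had a ratio above 1.3.

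The study altered the control of Tnt1, a retrotransposon of tobacco, and measured leaf RNA in 5 groups of 4 libraries. WT plants carried no transgene. C plants were regenerants that carried the empty vector, a 35S promoter, an intron and an OCS terminator, together with hygromycin resistance. HP8_T1 and HP1_T1 were regenerants of hairpin line 8 and line 1; in both, a 35S promoter drove sense and antisense copies of a piece of the Tnt1 reverse transcriptase sequence on either side of an intron, next to hygromycin resistance and the GUS reporter. HP1_T2 plants came from self-pollination of HP1_T1. All plants were 45 days old and were kept in vitro at 24 °C with 14 h of light a day, the transgenic ones per the labels with the matching antibiotic. The 35S promoter is active in most plant tissues, and each hairpin group stands for a single line. WT had passed through neither transformation nor regeneration, so these cannot be told apart from the transgene in comparisons with WT. The same holds for the antibiotic. Against C, the hairpin cannot be told apart from the GUS reporter. The hairpin mean also holds HP1_T2, whose plants came from self-pollination, while C plants were regenerants. Generation and regeneration are thus mixed into its comparison with C as well. HP1_T1 was regenerated and HP1_T2 came from self-pollination, so generation and regeneration cannot be told apart between them. Whether the 4 libraries per group stem from different plants is not in the labels, and the p-values below therefore measure only the spread between libraries, which may be technical.

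Retrotransposons such as Tnt1 copy themselves through an RNA that is reverse transcribed and inserted elsewhere in the genome. A double-stranded hairpin RNA is cut by plant Dicer-like enzymes into small RNAs, which can silence transcripts of matching sequence. Transcripts whose level moves little between conditions are used as reference genes when RNA levels are compared, and in plants such genes often serve the cytoskeleton, translation, ubiquitin-dependent protein turnover or protein dephosphorylation. Steadiness is always relative to the scale on which libraries are compared. None of the 24069 identifiers matched the 79372 genes of the RefSeq table at hand, and the files do not pair them with names. It is therefore not known which of these functions, if any, the 14 features serve, and no lists by pathway or by leaf cell type could be applied. Their sequences were not used here. Identifiers of 3 features are given below, and the other 11 features are called by their length, which differs for each.

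Library totals ranged from 1958952 to 3638494 reads, of which 199341 to 647426 lay outside the most abundant feature. Size factors ranged from 0.512 to 1.74, and averaged 0.801 for WT and 0.649 for C, while the averages were 1.28, 1.51 and 1.08 for HP8_T1, HP1_T1 and HP1_T2. In whole leaf RNA, fewer cells of a type and less RNA per cell cannot be told apart.

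Few features with this many reads had such even group means. In all, 544 features had at least 20 reads in every library, and 450 of these lay outside the 100 most abundant. Their ratio was at most 1.1 for 1 feature, at most 1.2 for 4, at most 1.3 for the 14, at most 1.5 for 47 and at most 2 for 184, or 40.9% of the 450. The median ratio of the other 436 was 2.17, and the highest was 23.2. The 5 ratios nearest the threshold on its inner side were 1.267, 1.269, 1.271, 1.278 and 1.284, and the 5 nearest on its outer side were 1.308, 1.309, 1.313, 1.315 and 1.321. The step across the threshold, from 1.284 to 1.308, was wider than the steps between the listed neighbours on either side. It was small beside the whole range of ratios, as the plot of ratios shows.

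**Figure D1:**
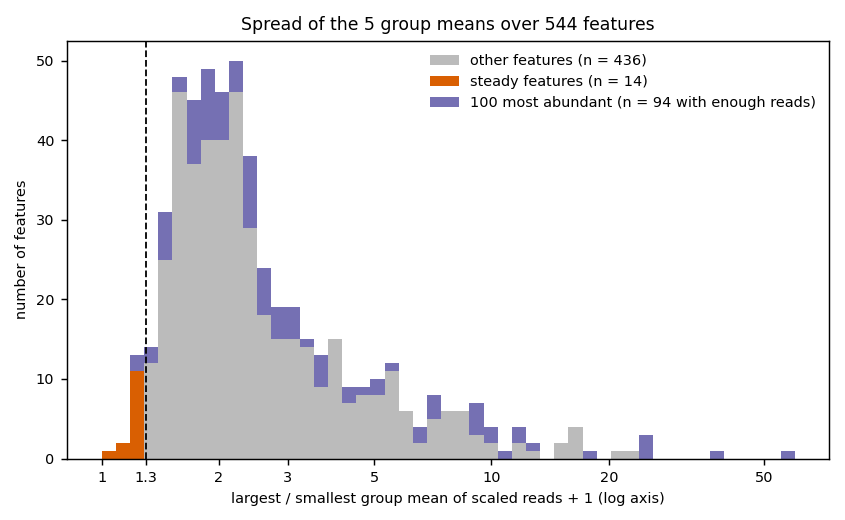
Number of features (vertical axis) by the ratio of the largest to the smallest group mean (horizontal log axis), for the 544 features with at least 20 reads in every library, stacked by class. The dashed line marks the threshold of 1.3. The 14 steady features form the left edge of the distribution, and 3 of the 94 most abundant features with enough reads also lie there.

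The steady features lay towards the lower end of abundance within this set. Their mean was 50.6 to 125 reads per library, with a median of 68.6 against 92.05 for the other 436, and they ranked 257 to 701 by total reads, with a median rank of 495.5 against 366. They were 594 to 3140 bases long. When the 450 features were split by mean reads into 4 classes of nearly equal size, the steady features made up 6 of 113 in the lowest class, 4 of 113 in the next, 4 of 112 in the one after that and 0 of 112 in the highest. The median ratio of all features in these classes was 1.94, 1.97, 2.20 and 3.14. The rule's minimum of reads bears on this, since a feature of few reads meets it only if no library lies far lower. It thus limits how uneven features of the low classes can be. Nothing is therefore read from the rise of the ratio or from the place of the 14 among the classes. Per length, the mean RPKM (reads per kilobase of feature and per 1000000 reads of the library) of the 14 ranged from 8.07 to 85.8 with a median of 26.3, against a median of 34.8 for the other 436.

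The feature with the smallest ratio, 1.07, was Nta#S33577796, 3140 bases long. Its scaled reads were 53.2, 80.6, 57.7 and 50.4 in WT, 70.3, 79.2, 65.4 and 34.2 in C, and 80.5, 58.4, 74.7 and 46.6 in HP8_T1. They were 66.97, 63.9, 60.4 and 68.4 in HP1_T1 and 61.2, 65.4, 64.1 and 64.0 in HP1_T2. The libraries of all 5 groups overlapped, and both the highest and the lowest library belonged to the groups without the hairpin. Its group means ran from 60.5 ± 13.7 (SD, n = 4) in WT to 65.04 ± 15.4 in HP8_T1, while single libraries differed by up to 2.36-fold. Even group means thus went with uneven libraries in this feature: its coefficient of variation (CV, the SD over the mean) was 31.4% in C and 2.79% in HP1_T2. The lowest count behind these values was 23 reads, and all reads were unique to the feature.

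The second smallest ratio, 1.13, and the most reads of the 14 both belonged to Nta#S45441622, a feature of 594 bases. Its scaled reads were 125, 134, 127 and 103 in WT, 115.3, 128.2, 103 and 140 in C, and 107.6, 126, 108.9 and 101.033 in HP8_T1. They were 127.8, 111, 102.4 and 117 in HP1_T1 and 136, 132, 120 and 115.5 in HP1_T2. All groups overlapped, and the highest library exceeded the lowest by 1.38-fold, the smallest such span among the 14. The group means ranged from 111 ± 10.7 in HP8_T1 to 126 ± 9.68 in HP1_T2, each over 4 libraries. At 85.8 RPKM on average it was also the most abundant of the 14 per length.

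Nta#S33578181, 1297 bases long, had the second most reads and the largest ratio, 1.28. Its scaled reads were 61.5, 85.2, 108.8 and 82.3 in WT, 99.6, 106.6, 83.5 and 120 in C, and 97.9, 101.6, 107.5 and 115.8 in HP8_T1. They were 96.9, 114.4, 105 and 118 in HP1_T1 and 96.9, 96.4, 97.0 and 82.1 in HP1_T2. The WT mean of 84.5 ± 19.4 was the lowest and the HP1_T1 mean of 108.7 ± 9.55 the highest, and the libraries of these groups overlapped. One WT library, replicate 1, lay below all other libraries, and with each library left out in turn the ratio ran from 1.16 to 1.42. It exceeded 1.3 without WT replicate 3, HP1_T1 replicate 1 or HP8_T1 replicate 1.

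**Figure D2:**
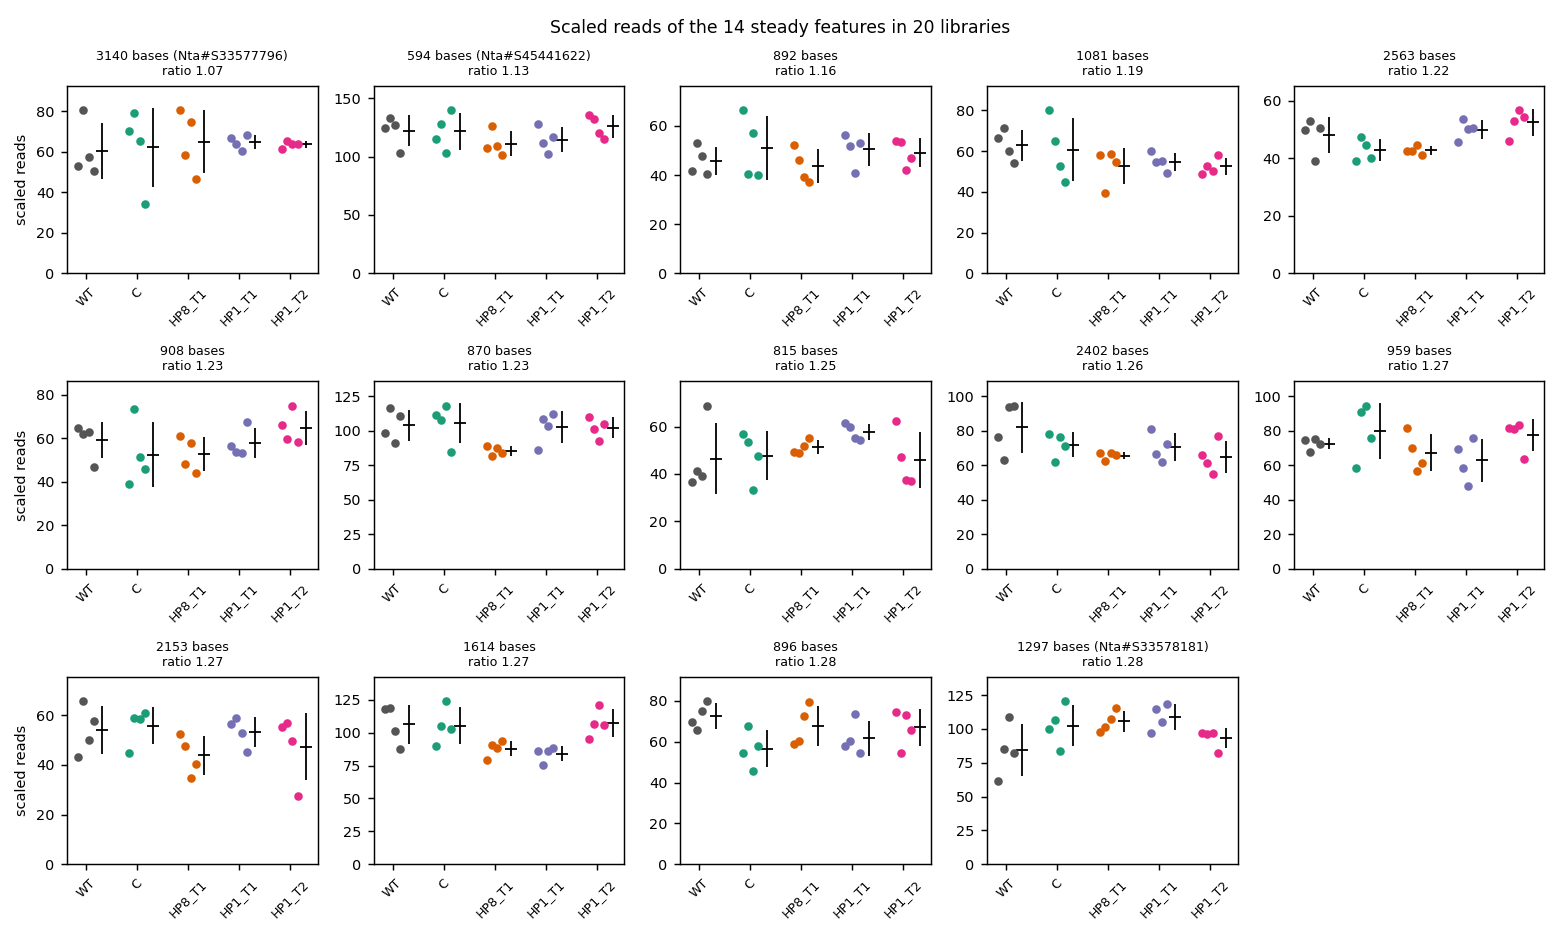
Scaled reads (vertical axes, each from 0) of the 14 steady features in the 20 libraries, by group (horizontal axes). Points are libraries; the black dash and bar beside each group are its mean and SD (n = 4). The panels are ordered by ratio, from 1.07 to 1.28, and in 12 of the 14 the libraries of the highest group overlap those of the lowest.

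The steady features did not share 1 order of the groups. The highest mean was in C for 4 of them, in HP1_T2 for 4, in WT for 3, in HP1_T1 for 2 and in HP8_T1 for 1. The lowest was in HP8_T1 for 5, in HP1_T2 for 3, and in WT, C and HP1_T1 for 2 each. A hairpin group was highest in 7 of the 14 and lowest in 10. The libraries of the highest and the lowest group did not overlap in 2 of the 14, against 95.6% of the 450 features with enough reads; since the rule chose on these means, nothing is read from this.

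One of these was the feature of 2563 bases. Its scaled reads were 42.6, 42.5, 44.7 and 41.2 in HP8_T1, all below the 45.9, 52.8, 56.7 and 54.4 of HP1_T2. Its C libraries, at 39.1, 47.5, 44.5 and 40.2, overlapped those of HP8_T1. The other was the feature of 1614 bases, at 86.4, 75.5, 85.7 and 88.3 in HP1_T1 and 94.8, 106, 120.8 and 106 in HP1_T2. The HP8_T1 mean of 87.9 ± 5.9995 of this feature lay close to that of HP1_T1, 84.0 ± 5.79, while WT, C and HP1_T2 had means of 106 ± 15.04, 105 ± 14.0 and 107.01 ± 10.7.

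Of the 4 features highest in C, 3 were lowest in HP8_T1. The feature of 870 bases had HP8_T1 libraries of 89.2, 81.4, 87.3 and 83.9 scaled reads, a mean of 85.5 ± 3.45, while the other group means lay between 102.2 and 106. Those 4 libraries overlapped C, whose lowest library was at 84.8, and HP1_T1, whose lowest was at 86.4, but lay below every WT and HP1_T2 library. The features of 892 and 2153 bases had means of 43.7 ± 6.89 and 43.8 ± 7.69 in HP8_T1 against 50.99 ± 12.98 and 55.8 ± 7.36 in C. The feature of 959 bases was highest in C at 79.9 ± 16.4 and lowest in HP1_T1 at 62.9 ± 12.4. In each of these 4 features the C libraries overlapped those of the lowest group.

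WT was highest in the features of 1081, 2402 and 896 bases. For the feature of 2402 bases, WT libraries were at 76.5, 63.3, 93.6 and 94.6 scaled reads and HP1_T2 libraries at 66.3, 61.2, 54.9 and 77.3. A pair of WT libraries stood above all others, and the remaining pair lay within the range of HP1_T2. The feature of 1081 bases went from 63.0 ± 7.58 in WT to 52.6 ± 4.09 in HP1_T2, and that of 896 bases from 72.6 ± 6.20 in WT to 56.6 ± 9.00 in C. In this last feature C was the lowest group, and 1 of its 4 libraries, at 67.7, reached above the lowest WT library, at 65.6.

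The remaining members were the features of 908 and 815 bases. The former was highest in HP1_T2 at 64.8 ± 7.71 and lowest in C at 52.5 ± 14.8, where its libraries were at 39.1, 73.5, 51.5 and 46.1. Its highest C library exceeded 3 of the 4 HP1_T2 libraries. The feature of 815 bases was highest in HP1_T1 at 57.8 ± 3.47 and lowest in HP1_T2 at 45.97 ± 11.7. Its HP1_T1 libraries spanned 54.5 to 61.7, and those of its progeny HP1_T2 were at 62.2, 46.9, 37.5 and 37.2, so that replicate 1 of HP1_T2 lay above the whole parent group.

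The median spread between libraries of a group was not smaller for the 14 than for the other features. Features with a large spread less often meet the rule, so this comparison is not independent of the choice and was not tested. The CV within groups, averaged over the 5 groups, had a median of 13.6% over the 14 features and 11.6% over the other 436. For the 268 others with a mean of 50 to 130 reads, the range that holds the 14, this median was 12.3%. The CV that counting alone would give at the features' read counts had a median of 12.9%, and 10 of the 14 lay above their own. The least spread was in the feature of 2563 bases, at 8.09%, and the most in that of 815 bases, at 18.2%. Across groups, the median CV of the 14 was 15.5% in C, 13.4% in WT, 11.97% in HP8_T1, 10.8% in HP1_T2 and 10.2% in HP1_T1. C and WT were also the groups with the lowest size factors and so the fewest reads for these features, a mean of 661 and 821 reads per library over the 14 together against 1093 to 1492 in the hairpin groups. The part of read number in the spread was not tested.

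**Figure D3:**
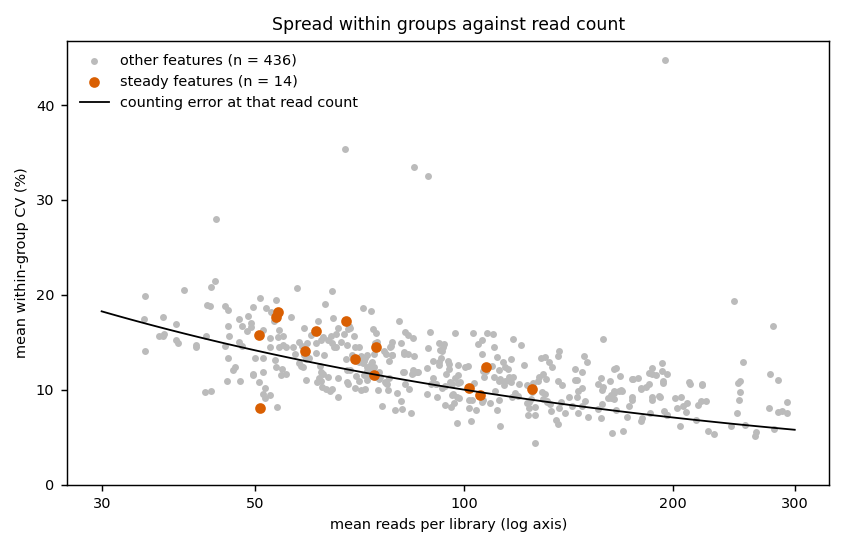
CV within groups in percent, averaged over the 5 groups (vertical axis), against mean reads per library (horizontal log axis) for the 14 steady features and the 436 others with enough reads. The line is the CV that counting error alone would give if every library had the mean read number. It lies below the counting CV given in the text, which uses the reads of each library. Steady features run from 8.09% to 18.2% and lie among the others of like read number.

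Over single libraries, all 20 lay within a 2-fold span in 10 of the 14 features and within a 3-fold span in all 14. The other 436 met these spans in 41 and 215 cases. The rule held the group means of the 14 close together, which narrows these spans, so nothing is read from this contrast. The widest span, 2.37-fold, was in the feature of 2153 bases, between 27.7 scaled reads in HP1_T2 replicate 4 and 65.6 in WT replicate 2. In this feature 74.8% of the reads were unique to it, so that part of its count may belong to a near copy. All reads were unique in 11 of the 14, or 78.6%, against 57.3% of the other 436, and the features of 908 and 815 bases had 90.9% and 99.4% unique reads.

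A value the rule did not use is the replicate number, which the labels give within each group. Shifts between libraries of different number, common to all 5 groups, were called by edgeR at an adjusted p of 0.05 in 0 of the 14, against 0.996% of the 7126 features tested. At an unadjusted p of 0.05 the count was again 0 of the 14, against 6.65% of all features, and the lowest edgeR p among the 14 was 0.0703, with an adjusted p of 0.804. No other tool was run on this.

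Comparisons between groups were fitted with edgeR on all 7126 features with enough reads, of which the 14 were all part. Library sizes were corrected by TMM, a trimmed mean of ratios over all features, and the adjusted p is the Benjamini-Hochberg value over the 7126. In C against WT, 0 of the 14 were called by edgeR, with 40.6% of all features called, 1 was at an unadjusted p under 0.05, and DESeq2 called 0. Leaving out WT replicate 2, WT replicate 3, C replicate 2 or HP8_T1 replicate 2 gave 1 call. For the mean of the 3 hairpin groups set against WT, 8 of the 14 were called, all lower with TMM, whereas all 14 were called higher with library totals and with totals outside the most abundant feature. Of all features, TMM called 26.2% lower and 55.6% in either direction. Against C, 7 were called, all lower with TMM, whereas all 14 were called higher with library totals; of all features, TMM called 18.8% lower and 37.1% in either direction. Without C replicate 2 or C replicate 4 this count was 4. These comparisons share the hairpin libraries, and the rule used the same means, so nothing is read from the counts.

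Some of these TMM differences exceeded in size the rule's limit on the ratio, which is 0.379 on the log2 scale. For the hairpin mean against WT, the feature of 2402 bases had a log2 difference of −0.55 (SE 0.11, adjusted p in edgeR = 3.11e-05), the lowest of the 14, and Nta#S45441622 one of −0.31 (SE 0.09, adjusted p = 0.00348), a call lost without the filter on low counts. Nta#S33577796, at −0.17 (SE 0.14, edgeR adjusted p = 0.290), and Nta#S33578181, at 0.00 (SE 0.11, edgeR adjusted p = 0.994), were not called. The median difference of the 14 was −0.32, that of all 7126 features 0.11. Against C the medians were −0.30 and 0.05, and in C against WT −0.01 and 0.00. Features that met the rule's minimum of reads were lower with TMM as well. Their median folds over WT in HP8_T1, HP1_T1 and HP1_T2 were 0.722, 0.783 and 0.793. Those of the 14 were 0.744, 0.813 and 0.893, so the offset from all 7126 features was not particular to the 14.

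Between the hairpin groups, single features were called. HP8_T1 was lower than HP1_T1 in the feature of 870 bases, at a log2 difference of −0.28 (adjusted p in edgeR = 0.0300, SE 0.11); 1 of the 14 was called, where 20.4% of all features were called lower and 40.99% in either direction. This call was lost without HP8_T1 replicate 2, 3 or 4 or without HP1_T1 replicate 2 or 4; without HP1_T1 replicate 4 the feature of 2153 bases was called instead. HP1_T2 was higher than HP1_T1 in the features of 1614 bases, by 0.44 (SE 0.11, edgeR adjusted p = 0.00136), and 959 bases, by 0.40 (SE 0.13, edgeR adjusted p = 0.0143). These 2 compare with 16.9% of all features called higher and 34.3% in either direction, and the call of the feature of 959 bases was lost without HP1_T1 replicate 3. Any difference among the 5 groups was called in 9 of the 14 and in 83.7% of all features.

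On the rule's own scale, the same edgeR fit called fewer of them. In C against WT it called 0, with 1 at an unadjusted p under 0.05 and 40.3% of all features called. In the hairpin mean against WT it called 2, Nta#S33578181 as higher (log2 difference 0.25, SE 0.11, adjusted p = 0.0390) and the feature of 2402 bases as lower (−0.30, SE 0.11, adjusted p = 0.0186), with 59.5% of all features called. Against C it called 0, with 0 at an unadjusted p under 0.05 and 40.9% of all features called. In HP8_T1 against HP1_T1 it called the feature of 870 bases, with 40.8% of all features called. In HP1_T2 against HP1_T1 it called the feature of 1614 bases alone, with 34.9% of all features called, and any difference among the 5 groups was called in 2 of the 14 and in 85.9% of all.

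The 95% intervals are centred on differences between the group means that the rule used, so they describe precision only. Over the 14, the median width of an interval on either side of the difference was 0.33 on the log2 scale in C against WT and 0.25 to 0.28 in the other comparisons. All 5 intervals lay within a 2-fold change in either direction for 14 of the 14 features on both scales. Within a 1.5-fold change they lay for 7 on the TMM scale and for 10 on the rule's scale, where the widest reached 1.61-fold. These widths hold for the TMM scale and the rule's scale; under other scalings the differences themselves lay elsewhere, as given below.

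**Figure D4:**
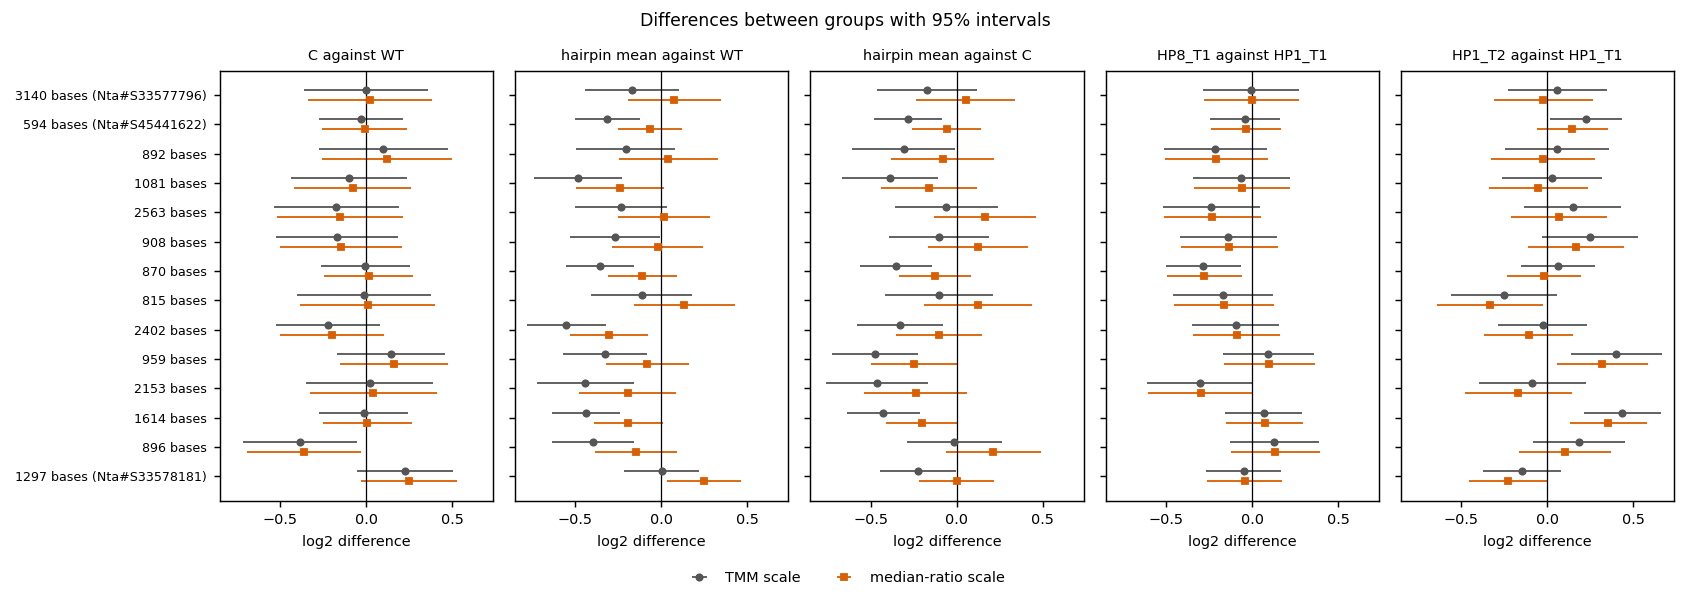
Log2 differences between groups (horizontal axes) with 95% intervals from edgeR for the 14 steady features (vertical axis, ordered by ratio) in 5 comparisons, on the TMM scale (grey circles) and on the median-ratio scale of the rule (orange squares). In both comparisons of the hairpin mean, the TMM values lie to the left of the median-ratio values by nearly the same amount for every feature.

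The steadiness of the 14 depended on the scale. The rule's size factors relative to those of TMM, as a log2 ratio with WT at 0, were −0.02 for C and −0.28, −0.27 and −0.19 for HP8_T1, HP1_T1 and HP1_T2, so that the rule's scale puts every feature of the hairpin groups higher over WT by these amounts. On TMM-scaled reads the ratios of the 14 were 1.14 to 1.52 with a median of 1.399, and 11 of the 14 exceeded 1.3. The same rule with TMM found 12 features, of which 3 were among the 14. With library totals it found 2, and with totals outside the most abundant feature 9, none of them among the 14.

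Per 1000000 reads of the whole library, the 14 features together held 255 ± 26.9 reads in WT and 270 ± 20.6 in C. The hairpin groups HP8_T1, HP1_T1 and HP1_T2 held 503 ± 33.1, 608 ± 35.6 and 509 ± 39.97. Every hairpin library, at 476 or above, exceeded every WT and C library, at 294 or below. As a share of the reads outside the most abundant feature, they held 0.163% ± 0.00857 in WT, 0.211% ± 0.00621 in HP8_T1, 0.239% ± 0.00938 in HP1_T2, 0.256% ± 0.0150 in C and 0.275% ± 0.00932 in HP1_T1. On that scale WT libraries lay below all others, and C stood with the hairpin groups. Each scale thus placed the same reads in another order of groups.

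The median fold of the 14 over WT in C, HP8_T1, HP1_T1 and HP1_T2 was 1.005, 0.901, 0.981 and 1.02 with the rule's size factors and 0.991, 0.744, 0.813 and 0.893 with TMM. It was 1.58, 1.26, 1.70 and 1.504 with totals outside the most abundant feature and 1.07, 1.93, 2.41 and 2.06 with library totals. On library totals all 14 features exceeded WT in each hairpin group. The median of the features that met the rule's minimum of reads rose there too, and fell with TMM in each hairpin group, as given above. A change of scale shifts all features of a library alike, so the median of the 14 relative to that of all 7126 features is nearly fixed by construction: in the hairpin mean against WT it was −0.43 to −0.42 on the log2 scale under the 4 scalings.

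The edgeR calls among the 14 followed these shifts. With library totals, all 14 were called higher in the hairpin mean against WT, with 85.9% of all features called, and against C, with 82.8% called. With totals outside the most abundant feature, 13 were called higher in C against WT and all 14 in the hairpin mean against WT, where 50.7% and 74.2% of all features were called. Library totals gave 0 calls in C against WT, with 1 at an unadjusted p under 0.05 and 39.2% of all features called; totals outside the most abundant feature gave 0 in the hairpin mean against C, with 2 at an unadjusted p under 0.05 and 39.9% called. In HP8_T1 against HP1_T1, 4 and 10 were called lower on these scales, with 40.9% and 45.97% of all features called. In HP1_T2 against HP1_T1, 4 were called lower on each, with 40.1% and 40.5% called, while TMM called 2 higher. Any difference among the 5 groups was called in all 14 on both, with 97.8% and 92.5% of all features called.

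**Figure D5:**
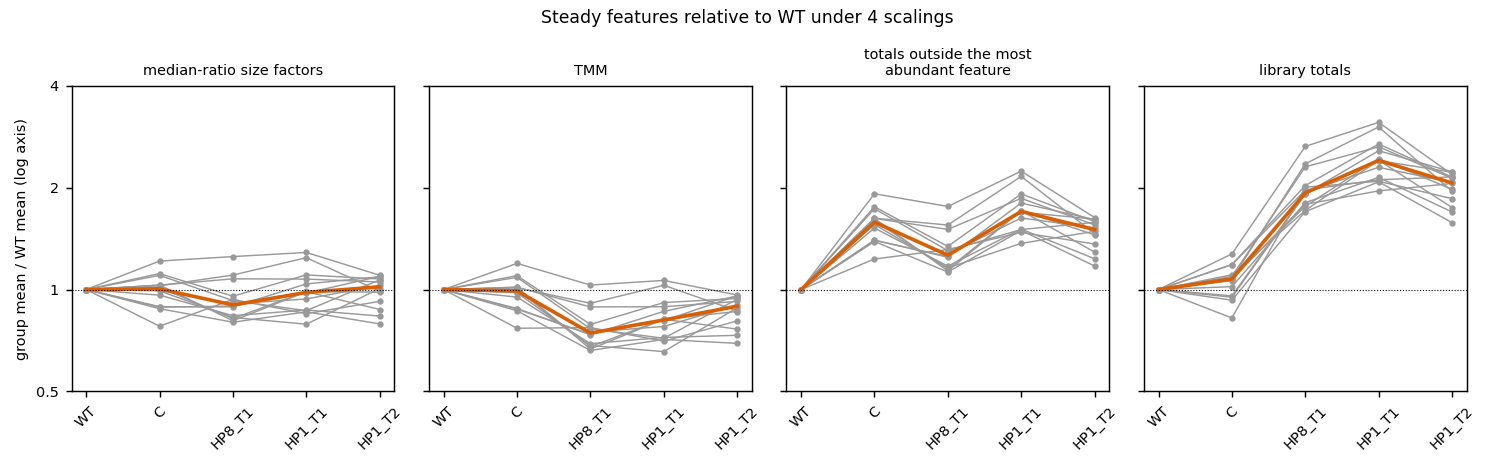
Group mean over WT mean (vertical log axis) of the 14 steady features (grey lines) and their median (orange) in the 5 groups (horizontal axes), under 4 scalings of the same reads. The median stays between 0.901 and 1.02 with the rule's size factors and reaches 2.41 in HP1_T1 with library totals.

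Among the 100 most abundant features, which the rule left out, 3 of the 94 with enough reads had a ratio of at most 1.3. The most abundant of them, 554 bases long and at rank 4 by total reads, had a ratio of 1.297 and a CV within groups of 2.34%, with a mean of 18452 ± 574 scaled reads in HP1_T2 and 14232 ± 415 in HP1_T1. A feature of 934 bases had a ratio of 1.201 and a CV of 5.66%, and one of 481 bases a ratio of 1.27 and a CV of 7.65%. Their mean reads per library, 16760, 1680 and 539, are far above those of the 14, and their CVs within groups are lower than in any of the 14.

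In the authors' deposited table of WT against the pooled hairpin libraries, 4 of the 14 had a p-value under 0.05, against 36.1% of all features, and the p-values of the 14 ran from 0.00176 to 0.870. In the authors' deposited table of WT against C, 0 of the 14 were under 0.05, against 26.4% of all features, and the lowest was 0.116. By the same deposited tables, 64.2% and 59.1% of the 450 features with enough reads were under 0.05. The authors' tables hold the same 20 libraries that the rule used, so these counts are a description.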

How the data were processed

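The authors deposited counts of total and unique gene reads per UniGene feature, feature lengths, RPKM values and p-values of their own comparisons, per the file headers, in 2 tables whose WT columns are identical. Per the labels' protocols, leaf RNA was isolated with lithium chloride and sequenced as SOLiD total RNA libraries. For the aligner and its reference, versions and settings were not given in the sources used here. Total gene reads of all 20 libraries were scaled as the rule states. Groups were compared with edgeR 4.0.16 in R 4.3.3 (TMM, filterByExpr with a minimum count of 10, quasi-likelihood F tests over 7126 features in 1 fit, Benjamini-Hochberg adjusted p of 0.05). The hairpin mean weighs its 3 groups equally. DESeq2 1.42.0 gave an alternative test; descriptions were computed in Python 3.11.15. The fits were tested on simulated data. The members and lists were chosen with earlier results of these data known. Identifiers are printed for the 2 members with the smallest ratio and the 2 with the most reads, 3 features in all; the other 11 were described with their values in view. The test on replicate number and the intervals were added after seeing the data. Intervals and SDs cover the spread between libraries, whose reads carry no molecular identifiers.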

Additional observations from a re-analysis of the deposited data

Results flagged for a closer look

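In 5 of the 70 sets of 4 libraries (14 features in 5 groups), 1 library stood far from the other 3 by Dixon's criterion, which chance alone meets in about 1 of 20 sets. Replicate 4 of HP1_T2 was lowest for Nta#S33578181, at 82.09 scaled reads against 96.4 to 97.0 in the other 3, and for the feature of 959 bases, at 63.96 against 81.3 to 83.3. Replicate 4 of WT was highest for the feature of 815 bases, at 68.8 scaled reads against 36.6 to 41.4, and lowest for that of 908 bases, at 46.69 against 62.2 to 64.9. Replicate 1 of C was lowest for the feature of 2153 bases, at 44.94 scaled reads against 58.4 to 61.0. These values rest on 86, 67, 56, 38 and 23 reads, in the order given.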

How the results depend on the processing

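The number of steady features was 14 by the rule and 12 with TMM. It was 2 with library totals, 9 with totals outside the most abundant feature, 33 with a minimum of 10 reads, 4 with a minimum of 40 reads, 4 with a ratio of at most 1.2 and 47 with a ratio of at most 1.5. With each library left out it ran from 12 to 16, and 11 to 14 of the features were shared with the 14; the lowest overlap, 11, came without WT replicate 1 or C replicate 1.

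Of the 14, the count called in C against WT (0) was 13 with totals outside the most abundant feature and 1 with unique reads. For the hairpin mean against WT (8) the count came to 2 with the rule's size factors, 14 with library totals, 14 with totals outside the most abundant feature and 2 without the filter on low counts. Against C (7) it was 0, 14, 0 and 0 under these settings and 4 with DESeq2. In HP8_T1 against HP1_T1 (1) it was 4 with library totals, 10 with totals outside the most abundant feature, 2 with unique reads and 0 with DESeq2. In HP1_T2 against HP1_T1 (2) it was 1 with the rule's size factors, 4 with each kind of total and 1 without the filter. Any difference among the 5 groups (9) was called in 2 with the rule's size factors, 14 with each kind of total and 5 without the filter. The cause was not tested. The 8 and 7 calls with TMM in the hairpin mean were all lower, and the 14 with library totals all higher. With each library left out, the ratio of Nta#S33578181 ran from 1.16 to 1.42 and exceeded 1.3 in 3 of 20 cases, at 1.42 without WT replicate 3, 1.33 without HP1_T1 replicate 1 and 1.301 without HP8_T1 replicate 1.

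With each library left out, these counts ran from 0 to 1 in C against WT, 7 to 9 in the hairpin mean against WT, 4 to 7 against C, 0 to 1 in HP8_T1 against HP1_T1, 1 to 2 in HP1_T2 against HP1_T1 and 8 to 9 for any difference. C against WT gave 1 call without WT replicate 2 or 3, C replicate 2 or HP8_T1 replicate 2, and the hairpin mean against C gave 4 without C replicate 2 or 4.

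No strong pairing of libraries by equal replicate number was seen. For this, each feature's group mean was subtracted from its log value in a library, and libraries were correlated over these differences. The 40 correlations of same-numbered libraries of different groups, taken in this way, ran from −0.00457 to 0.0399. Those of the 120 differently numbered pairs ran from −0.0381 to 0.0396. A fit with the replicate number as a block called 0, 8, 7, 1, 2 and 9 of the 14, the same counts as without it. At 20 to 188 reads per feature and library, counting error alone is about as large as the spread within groups.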
